A study of Bos taurus with 12 samples.

Results

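The loci described here are the single CpG sites and the 500-bp windows (tiles) that the authors' annotation places within a coding sequence (CDS), an exon, a 5′ untranslated region (5′ UTR) or a 3′ untranslated region (3′ UTR) on bovine autosomes 1 to 29. A locus was taken when its annotation had the position "within" and 1 of those 4 feature types, with no use of its methylation values. The rule took 360 of 17730 listed sites (13502 of them autosomal) and 464 of 7290 listed tiles (6580 autosomal). The sites fell in 213 annotated genes and the tiles in 215, with 21 genes in common (9.86% of the site genes and 9.77% of the tile genes). Sites were on 23 chromosomes, with 4 to 36 on each, and tiles on 26, with 1 to 44 on each.

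Methylation was measured in sperm DNA of 12 samples by EM-seq (enzymatic methylation sequencing), a method that converts unmethylated cytosines with enzymes in place of bisulfite. Per the labels, 6 samples belonged to the low daughter fertility group and 6 to the high daughter fertility group, and the study asked which methylation features of sperm go with daughter fertility. All samples were male sperm, and the labels name no breed, age, treatment or shared batch. The files analysed hold the authors' comparison of the groups and no value per sample, so no spread between samples can be given and the depth behind each value is unknown. All q-values are those of the authors' test, and every comparison between feature types below is a description without a test, because neighbouring loci share samples, reads and, for overlapping tiles, CpG sites. A difference is signed, in percentage points of methylation, and its direction is not stated in the sources used here. It is therefore called positive or negative as listed, without naming the group that was higher.

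Mature sperm carry a methylome that is high over most of the genome, gene bodies included, and low over many CpG-rich promoters. A 5′ UTR often starts inside such a CpG-rich stretch, while coding exons and 3′ UTRs lie further into the gene body, where methylation is usually high and is not by itself a mark of silencing. The type "exon" in the annotation covers exon records of coding genes as well as exons of transcripts for which no gene is named.

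A site or tile was called when its q-value was below 0.05 and its absolute difference at least 10 points. By the authors' deposited table, 11 of the 360 sites (3.06%) were called, beside 4.48% of all listed autosomal sites. Of these, 9 were negative (background 3.07% of autosomal sites) and 2 positive (background 1.41%). Negative calls were thus 81.8% of the called sites inside exons and untranslated regions, and 68.6% of all called autosomal sites. At q below 0.05 alone, 14 sites (3.89%) passed, beside 6.06% of autosomal sites. They comprised 11 negative sites (background 4.15%) and 3 positive ones (background 1.90%). The called sites lay on 6 chromosomes.

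CDS held 257 of the sites, in 155 genes, and 9 of the 11 calls (8 negative, 1 positive). That is 3.50% of the CDS sites, beside 3.45% of 2752 sites inside introns in the authors' deposited table. CDS sites had a median difference of −1.14 points, with an interquartile range of −3.97 to 1.09 and extremes of −22.9 and 20.9. Negative differences were listed at 153 CDS sites, positive ones at 84 and a difference of exactly 0 at 20. The exon type had 43 sites and 2 calls (1 negative, 1 positive; 4.65%), with a median of 0 and extremes of −19.97 and 18.5 points.

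None of the sites in untranslated regions passed q below 0.05 in the authors' deposited table. The 25 sites in 5′ UTRs, in 18 genes, had a median of −0.35 points and ranged from −6.25 to 11.1. The 35 sites in 3′ UTRs, in 27 genes, had a median of −0.46 points and ranged from −9.77 to 6.79. At an unadjusted p below 0.05 there were 4 sites in 5′ UTRs and 6 in 3′ UTRs, and 68 of all 360 sites (18.9%), beside 20.5% of autosomal sites. With so few sites listed in untranslated regions, these counts of 0 set no narrow limit on the share that could be called.

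**Figure D1:**
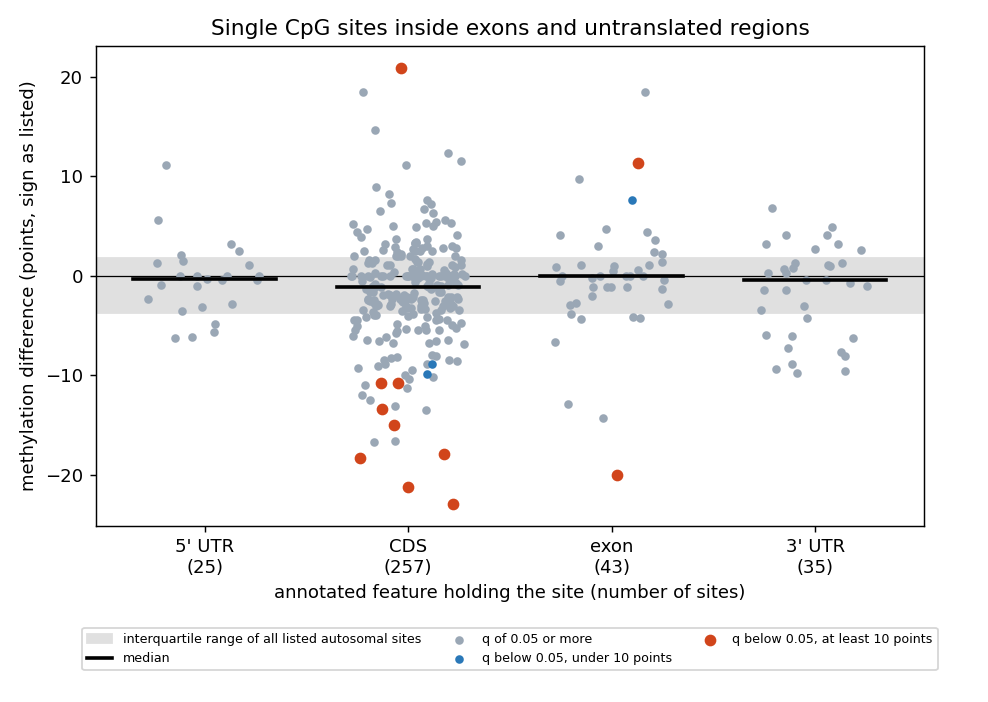
Methylation difference (percentage points, sign as listed) of each of the 360 single CpG sites by the feature type that holds it, with the median as a bar and the interquartile range of all listed autosomal sites as a grey band. Each point is 1 site of the authors' comparison. Red points are the 11 called sites, which all lie in CDS or exons, and blue points passed q below 0.05 with under 10 points.

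The most negative called site lay in a gene for WC1, a scavenger receptor that cattle γδ T cells carry as a co-receptor. In the authors' deposited table the WC1 site (gene ENSBTAG00000049861, antigen WC1.1) was at chromosome 5, position 102805669 in build ARS-UCD1.2, with a difference of −22.9 points (q = 0.009997). It was the only listed site in its 318-bp coding segment. The annotation assigns 14 other listed sites to the gene, 3 of them called (1 negative, 2 positive), and 1 coding tile at −0.45 points (q = 0.180). A related scavenger receptor gene on the same chromosome, CD163L1 (ENSBTAG00000054245), had 3 listed coding sites, all negative. The authors' deposited table gave −10.8 points (q = 0.00674) at position 103036532, −8.82 points (q = 0.0162) at 103036562 and −16.7 points (q = 0.0602) at 103025816. Of its coding sites, CD163L1 thus had 1 called, 1 that missed the minimum of 10 points and 1 that missed the q threshold. The annotation assigns 12 sites other than the called one to this gene, coding ones included, 8 of them negative and none called.

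On chromosome 29, 3 called coding sites lay in separate genes, all negative. Both genes with a full name are annotated as TRIM64 or TRIM64-like, of the tripartite motif family, many of whose members are E3 ubiquitin ligases. The TRIM64-like gene ENSBTAG00000053102 had −18.3 points (q = 0.0222) at position 5614362 in the authors' deposited table. Of the 6 other sites listed within 500 bp of it, 4 were positive, they ranged from −3.28 to 14.6 points, and 1 was itself called as positive. Its only tile starting in an exon, 5614201 to 5614700, was negative at −5.31 points (q = 0.000358), per the authors' deposited table. Of 26 other listed sites assigned to this gene, 2 were called, 1 in each direction. TRIM64 (ENSBTAG00000049646) had −17.9 points (q = 0.0266) at position 5722843, with a neighbouring site at −9.75 points, again from the authors' deposited table. The annotation assigns 65 other listed sites to TRIM64, of which 5 were called, 4 as negative and 1 as positive.

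The gene between them, ENSBTAG00000054977, has no full name in the files. It had −13.4 points (q = 0.0130) at position 5658358 and −16.6 points (q = 0.0734) at 5658436 in the authors' deposited table, and its 10 coding sites ranged from −16.6 to 6.35 points. A larger difference therefore missed the q threshold while a smaller one nearby passed it. Of the 78 other sites assigned to this gene, coding ones included, 5 were called, 3 as negative and 2 as positive.

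ENSBTAG00000048516 on chromosome 21, also without a full name, was the feature with the most listed sites and, counting only sites inside exons and untranslated regions, the only gene with 2 calls. Its coding segment of 2142 bp (19630064 to 19632205) held 17 sites, of which 14 were negative, with a median of −2.33 points and a range of −14.98 to 12.3. The authors' deposited table called position 19632103 at −14.98 points (q = 0.0320) and position 19631968 at −10.8 points (q = 0.00439). Both calls lay within 237 bp of the segment's 5′ end, on the strand of the gene. Among tiles of the segment, the authors' deposited table gave −4.17 points (q = 0.000243) over the 5′ part that holds both called sites. Over the 3′ part it gave −4.37 points (q = 1.15e-25) and −0.41 points (q = 0.233) for tiles starting 100 bp apart.

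**Figure D2:**
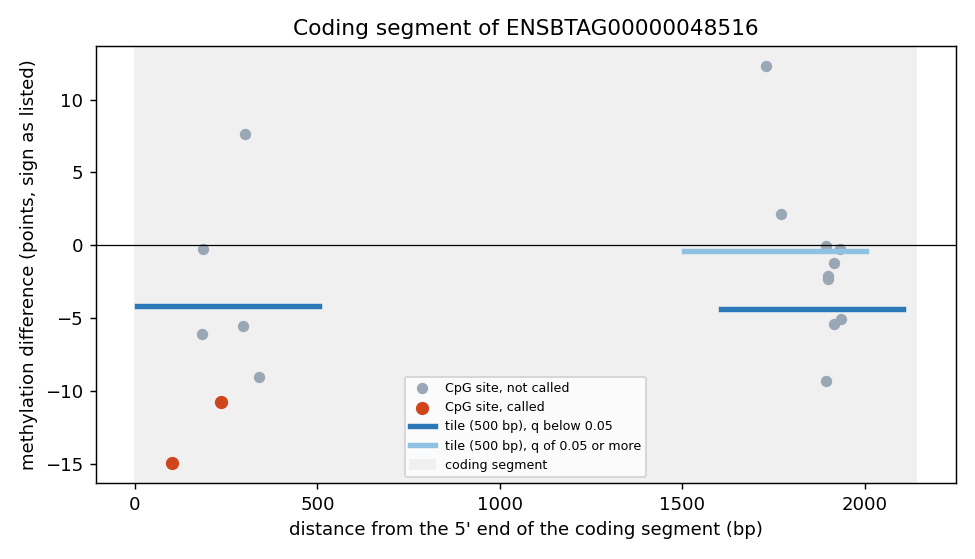
Methylation difference (percentage points, sign as listed) along the 2142-bp coding segment of ENSBTAG00000048516, by distance in bp from its 5′ end. Points are the 17 CpG sites, 2 of them called (red, −14.98 and −10.8 points), and bars are the 3 tiles of 500 bp at −4.17, −0.41 and −4.37 points.

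Of the other CDS calls, 1 was negative and 1 positive. ENSBTAG00000046821, without a full name, had −21.2 points (q = 0.0130) at chromosome 14, position 78648540, and −11.0 points (q = 0.0813) at 78648555 in the authors' deposited table. Of the 4 sites other than the called one that the annotation assigns to it, 2 were negative and none was called. The single positive CDS call was in ADGRE4 (ENSBTAG00000038981), an adhesion G protein-coupled receptor whose relatives are found on myeloid cells. The authors' deposited table listed 20.9 points (q = 0.00553) for it at chromosome 7, position 17511646.

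Both called exon sites differed in kind. The negative one lay in immunoglobulin heavy variable 4-38-2 (ENSBTAG00000048268), a variable segment of the antibody heavy chain, at chromosome 21, position 358646. The authors' deposited table gave it −19.97 points (q = 0.00255), and its exon record also carries a coding sequence. The gene's other sites inside its exon or CDS were at −4.34 and −4.97 points. With these included, the annotation assigns 5 sites other than the called one to the gene, 3 of them negative and none called. The positive one lay in an exon of transcript ENSBTAT00000071201, for which no gene is named, at chromosome 20, position 5350544, with 11.3 points (q = 0.0420), per the authors' deposited table.

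WC1, TRIM64, immunoglobulin variable, olfactory receptor, UL16-binding protein and USP17-like genes belong to families of related copies. How the authors treated reads that map to several copies is not given in the sources used here, and sequence identity between copies was not measured, so the assignment of these values to 1 copy is uncertain. Some sites that missed the call rule show how it cut. With q below 0.05 but under 10 points, the authors' deposited table listed a zinc finger protein 331 site at chromosome 18, position 57221627 (−9.91 points, q = 0.0253). It also listed an exon site of ENSBTAT00000083532 at chromosome 5, position 59767650 (7.61 points, q = 0.0291). Large differences that missed the q threshold included 18.4 points in LRRC9, a gene of the leucine-rich repeat class (q = 0.0578), and 18.5 points at an exon site at chromosome 1, position 150366163 (q = 0.0832), both in the authors' deposited table. These 4 sites, like CD163L1 and ENSBTAG00000054977 above, were chosen after their values were seen.

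In 5′ UTRs the largest difference was 11.1 points in ENSBTAG00000052600 (chromosome 11, position 105581790), with a q of 0.292 in the authors' deposited table. The most negative was −6.25 points (q = 0.149) in the gene for myoneurin, a zinc finger protein. Chymotrypsin C, a digestive protease of the pancreas, had 3 sites in its 5′ UTR at −4.85 to −0.98 points, the lowest q being 0.0751 in the authors' deposited table. In 3′ UTRs the most negative site lay in HADH, a mitochondrial enzyme of fatty acid oxidation (chromosome 6, position 17209377, −9.77 points, q = 0.316). The UL16-binding protein 3-like gene ENSBTAG00000036061, of a family of ligands for an activating receptor of natural killer cells, had 7 sites in its 3′ UTR and 7 in its CDS. Its 3′ UTR sites ranged from −9.61 to 3.19 points and its CDS sites from −4.13 to 4.14 points, with no q below 0.05 in the authors' deposited table. These genes too were chosen after their values were seen.

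Sites of the same feature often differed in sign. Of 246 features, 191 held a single listed site. Among the 20 features with 3 or more, 15 had both signs, 3 were all negative, 1 was all positive and 1 had negative differences and differences of 0. Where both strands of 1 CpG were listed, at 8 CpGs, the strands had the same sign at 6 and none was called on both. The gap between the strands ran from 0.121 to 9.26 points, with a median of 4.93. The widest gap lay in ENSBTAG00000048516, where the authors' deposited table gave −0.04 points on the plus strand at position 19630311 and −9.30 points on the minus strand of the same CpG. A median of 4.93 points between strands of 1 CpG is larger than the median absolute difference of the 360 sites, 2.67 points.

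Position inside a feature and strand were set beside the differences. CDS sites in the 5′ part, middle part and 3′ part of their segments (86, 94 and 77 sites in equal parts of its length) had medians of −1.04, −1.85 and −0.99 points. In 3′ UTRs the medians along the same parts were −1.20 (16 sites), −0.76 (11 sites) and 2.13 points (8 sites). The 192 sites on the strand of their gene had a median of −0.82 points and 6 calls, and the 168 on the opposite strand a median of −0.97 points and 5 calls. Neither the strands nor the parts were tested against each other.

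The feature with the next most sites was a 105-bp coding segment of BPIFA2A (ENSBTAG00000009144), a secreted protein of saliva, at chromosome 13, 62507793 to 62507897. It held 10 sites, 9 of them negative, from −11.3 to 0.68 points, and none had q below 0.05 in the authors' deposited table (lowest q = 0.240). The tile that starts in the segment, from 62507801, was at −5.91 points, with a q of 2.53e-07 in the authors' deposited table. The mean of the sites listed inside that tile was −5.82 points. Sites and tile gave nearly the same difference here, and only the tile passed the threshold.

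Tiles were described apart from sites. A tile counted as within a feature when its first base lay there, so a tile value also covers CpGs outside the feature. Only 116 of the 464 tiles lay wholly inside, and the median overlap was 77.5 bp for 5′ UTR tiles, 259 bp for CDS, 331 bp for exons and 500 bp for 3′ UTRs.

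Of the 464 tiles, 282 (60.8%) had q below 0.05 in the authors' deposited table, beside 71.0% of all listed autosomal tiles. These comprised 169 negative tiles (background 54.2% of autosomal tiles) and 113 positive ones (background 16.8%). Only 1 tile (0.216%) was called at 10 points, beside 2.34% of autosomal tiles. It was negative (background 2.17%), and no tile was called as positive (background 0.167%). The differences were small. Under 1 point were 326 tiles (70.3%), against 42.0% of autosomal tiles, and at least 5 points were 21 (4.53%), against 13.9%. The median absolute difference was 0.52 points, against 1.43 points over all autosomal tiles and 1.63 points over the 683 tiles inside introns. Tiles in CpG islands, 626 in number, were close in size, with a median of 0.50 points. The share of negative tiles was 54.3%, against 70.3% of autosomal tiles. For 41 of the tiles the authors' q-value was below 0.05 while the p-value was not.

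The types were ordered from the start of the gene to its end as follows. In 5′ UTRs, 110 tiles in 83 genes had a median of −0.03 points, 56 negative and 54 positive, and 70 (63.6%) had q below 0.05, 35 in each direction. In CDS, 239 tiles in 118 genes had a median of −0.11 points, and 141 (59.0%) had q below 0.05, of which 87 were negative and 54 positive. Exon tiles (87 in 43 genes) had a median of −0.02 points, and 53 (60.9%) had q below 0.05, 34 negative and 19 positive. In 3′ UTRs, 28 tiles in 8 genes had a median of −0.89 points, 21 negative and 7 positive, and 18 (64.3%) had q below 0.05, 13 negative and 5 positive, in the authors' deposited table. Tiles under 1 point made up 87.3% of 5′ UTR tiles, 64.0% of CDS tiles and 72.4% of exon tiles, and were 14 of the 28 3′ UTR tiles. The 3′ UTR values rest on few genes, since 18 of the 28 tiles are in 1 gene, FBXO16.

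Exon tiles split by what their row names. The 29 tiles on exons of transcripts with no gene named had a median of −0.64 points and held all 5 exon tiles with at least 5 points. Those 5 were 3 overlapping tiles of ENSBTAT00000076496 and 1 tile each of ENSBTAT00000077061 and ENSBTAT00000080508, both on chromosome 21. The 58 exon tiles whose row names a gene had a median of −0.01 points and none of at least 5 points. Exon sites had the reverse order, with medians of 0.62 points (23 sites, no gene named) and −0.83 points (20 sites, gene named).

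**Figure D3:**
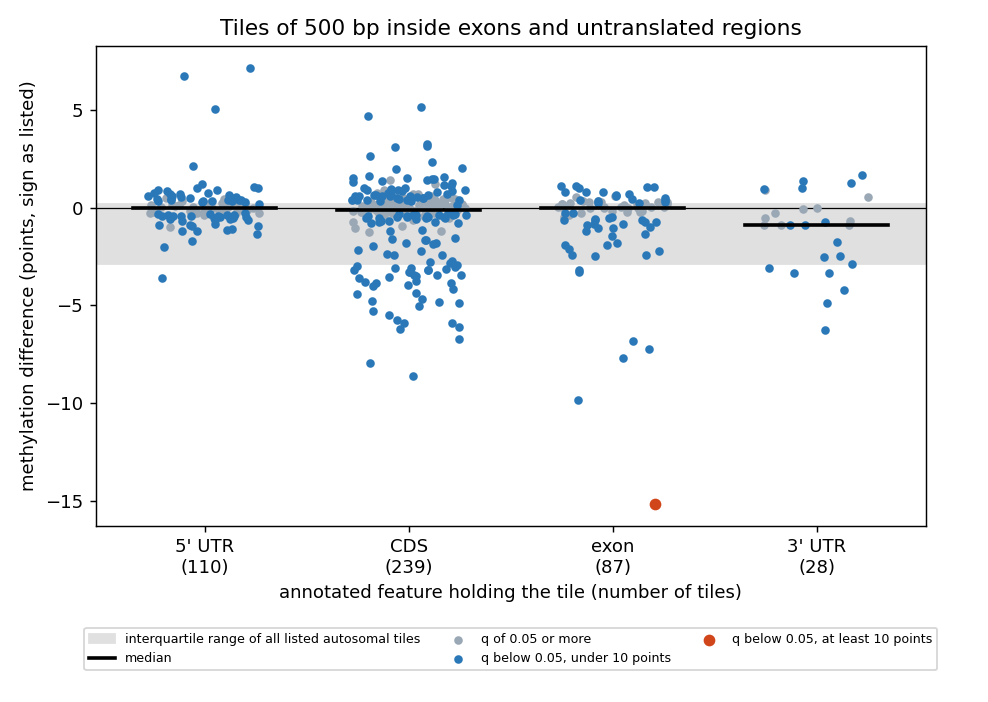
Methylation difference (percentage points, sign as listed) of each of the 464 tiles by the feature type that holds its first base, with medians as bars and the interquartile range of all listed autosomal tiles as a grey band. Each point is 1 tile. Most points lie within 1 point of 0, and the single called tile (red, −15.2 points) has its first base in an exon.

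**Figure D4:**
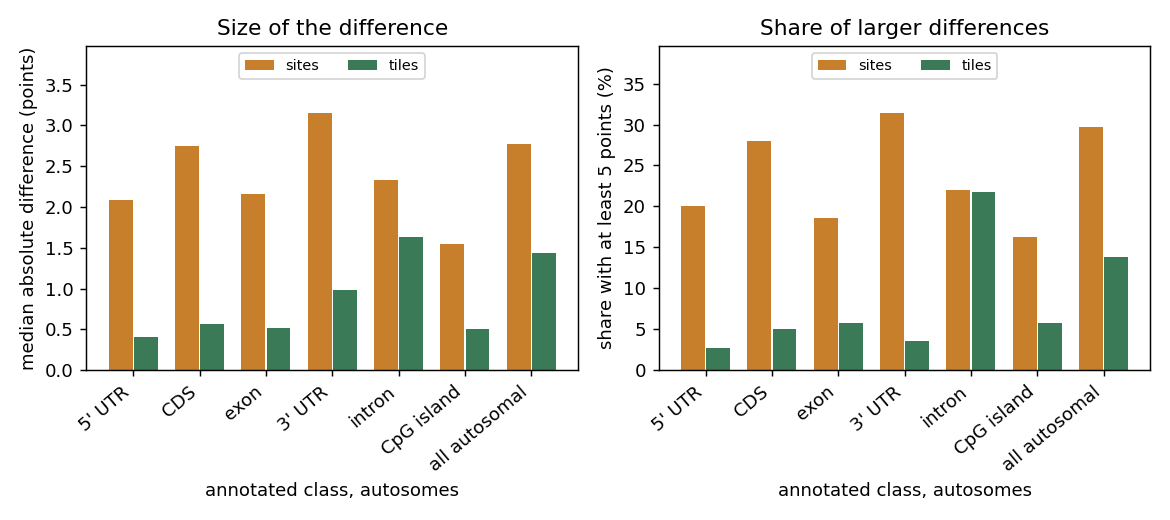
Median absolute difference in percentage points (left) and percentage of loci with at least 5 points (right), for sites and tiles of each of the 4 types and of introns, CpG islands and all listed autosomal loci. Bars start at 0 and have no error bar because no value per sample was analysed. At least 5 points were listed for 26.7% of the 360 sites and 4.53% of the 464 tiles, against 29.7% and 13.9% of autosomal sites and tiles.

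The 1 called tile, at chromosome 21, 33024601 to 33025100, overlapped 41 bp of a 119-bp exon of transcript ENSBTAT00000080508, for which no gene is named. Its difference was −15.2 points, with a q of 1.42e-201 in the authors' deposited table. The tile started in a listed CpG island. Of the 16 sites listed inside it, 14 were called, and the mean of the 16 was −16.7 points. The annotation places none of these 16 sites inside an exon or untranslated region. The 20 tiles listed around the called tile were all negative, 4 of them called, and none of them started in an exon or untranslated region. Another exon of exactly 119 bp on the same chromosome (ENSBTAT00000077061, tile from 33002801) had −9.86 points with a q listed as 0 in the authors' deposited table. The third exon of that length, on chromosome 20 (ENSBTAT00000066595), had −2.41 points (q = 1.2e-72). All 3 tiles on exons of this length were negative, beside 70.3% of all listed autosomal tiles. The 10 tiles listed within 1000 bp of the tile from 33002801 were all negative as well, so the sign there is not particular to the exon.

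Tiles of at least 5 points numbered 21, of which 17, the called tile included, were negative and 4 positive. In CDS the most negative lay in ENSBTAG00000052622, an unnamed gene, whose segment at chromosome 14, 13788410 to 13789146, held 5 overlapping tiles from −8.62 to −4.76 points. The authors' deposited table gave a q of 1.43e-15 at −8.62 points, for a tile that overlapped 246 bp of the segment. The 11 other tiles listed within 1000 bp of it were all negative, from −9.77 to −4.76 points. Only 4 of those 11 started in an exon or untranslated region, so the sign there is not particular to the coding segment. ENSBTAG00000050327 (chromosome 7, 117412 to 117908) and ENSBTAG00000053765 (chromosome 16) have coding segments of the same length, 497 bp, and no full name. The 5 tiles of ENSBTAG00000050327 in that segment ran from −6.19 to −5.49 points (lowest q = 6.48e-119) and the tile of ENSBTAG00000053765 was at −7.95 points (q = 2.47e-16), per the authors' deposited table. The 3 tiles listed within 1000 bp of the tile of ENSBTAG00000053765 were also negative, from −8.19 to −7.59 points. None of them started in an exon or untranslated region. An exon of ENSBTAT00000076496 on chromosome 7 had 3 tiles, at −7.67, −6.82 and −7.25 points. Apart from ENSBTAG00000052622 and the called tile, the genes and transcripts given for tiles of this size, CNR1 included, were chosen after their values were seen.

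Positive tiles of at least 5 points were in only 2 genes. The glycine-N-acyltransferase-like gene ENSBTAG00000052095, of a family of enzymes that conjugate glycine to acyl groups in mitochondria, had 3 tiles starting in its 5′ UTR on chromosome 15. From 82108301, 82108401 and 82108501 they had 6.73, 7.15 and 5.03 points, with q-values of 5.83e-09, 2.56e-10 and 1.41e-05 in the authors' deposited table. The single site listed in that 5′ UTR had −0.35 points and lay only in the tile from 82108301, whose sign it did not share. The tiles from 82108401 and 82108501 held 2 and 3 listed sites, which ran from 3.41 to 5.44 points and so shared the tiles' sign. The annotation places none of those sites inside an exon or untranslated region. CNR1 (ENSBTAG00000054523), the cannabinoid receptor, had a coding tile on chromosome 9 from 61768901 at 5.13 points (q = 4.38e-08).

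The 3′ UTR of PEG10 (ENSBTAG00000053735), a retrotransposon-derived gene known in mammals as imprinted and expressed from the paternal copy, held both of the most negative 3′ UTR tiles. On chromosome 4 these spanned 12072001 to 12072500 (−6.28 points, q = 1.1e-10) and started at 12071901 (−4.88 points, q = 4.31e-11), by the authors' deposited table. These tiles overlap and are not separate measurements. Sites of chromosome 4 were not analysed here, so no site value stands beside them.

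Tiles of 1 feature mostly had the same sign. Overlapping tiles share CpGs, so their signs are not separate observations, and why they shared a sign was not tested. Among 37 features with 3 or more tiles, 19 were all negative, 12 all positive and 6 mixed. The feature with the most tiles was the 3′ UTR of FBXO16 (ENSBTAG00000034626; chromosome 8, 10293330 to 10296282), the gene for an F-box protein, a class of substrate adaptors of ubiquitin ligases. Its 18 tiles had both signs, and 10 of them had q below 0.05, beside 71.0% of all listed autosomal tiles. The 6 tiles starting 271 to 771 bp from its 5′ end were positive, at 0.53 to 1.34 points, 4 of them with q below 0.05. From 1171 to 1971 bp, 6 tiles were negative at −3.36 to −1.74 points, each with q below 0.05 (lowest q = 3.52e-09), and from 2371 to 2871 bp 6 more ran from −0.91 to −0.27 points without passing, in the authors' deposited table.

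USP17-like protein 6 genes, which encode deubiquitinating enzymes in a family of many copies, were negative throughout in both annotated copies. On chromosome 4, ENSBTAG00000030838 had 11 coding tiles from −3.96 to −2.42 points, with q down to 2.06e-149 in the authors' deposited table. On chromosome 3, ENSBTAG00000030892 had 7 coding tiles from −4.00 to −2.23 points, with q down to 7.08e-40. All 18 tiles had q below 0.05, beside 71.0% of all listed autosomal tiles.

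Zinc finger protein 331 (ENSBTAG00000037710, chromosome 18) had 15 tiles, 13 in CDS and 2 in the 3′ UTR, all negative at −4.67 to −0.62 points. Of these, 12 had q below 0.05 (lowest q = 2.67e-12) in the authors' deposited table, beside 71.0% of all listed autosomal tiles. Its 3 sites listed in CDS were negative too, at −9.91, −4.88 and −2.23 points in the authors' deposited table. The annotation assigns 185 sites other than the one at −9.91 points to the gene. Of those, 116 were negative, and 9 were called, 8 as negative and 1 as positive. This gene was chosen after its values were seen.

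**Figure D5:**
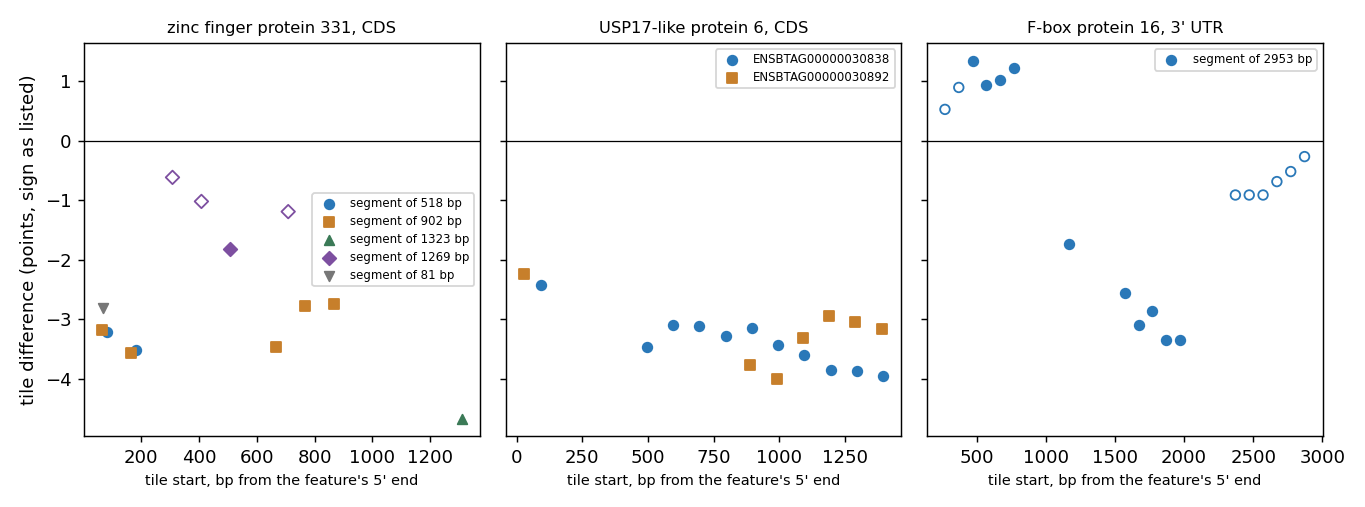
Methylation difference of each tile (percentage points, sign as listed) by the distance in bp of the tile's start from the 5′ end of the feature, for the coding segments of zinc finger protein 331, both USP17-like protein 6 genes and the 3′ UTR of FBXO16. Filled symbols have q below 0.05 and open ones do not. All tiles of the first 2 panels are negative, and those of FBXO16 pass from 1.34 points at the highest to −3.36 at the lowest.

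ENSBTAG00000051364 on chromosome 2, without a full name, differed between its coding segments. The segment at 121572328 to 121573133 held 8 tiles, all positive at 1.41 to 3.25 points, several with a q listed as 0 in the authors' deposited table. In the segment that starts at 121569848, 5 tiles ran from −0.47 to 0.10 points. NEFM, the medium subunit of neurofilaments, had 8 coding tiles from −0.09 to 0.42 points. Very small q-values thus stood beside differences of a few points.

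Gene families were found by words in the full gene name, so genes whose names lack the words are not counted. The tile counts at q below 0.05 that follow stand beside 71.0% of all listed autosomal tiles at that threshold (54.2% negative, 16.8% positive), and no family was tested against other genes. Olfactory receptors, the odorant receptors encoded in large clusters, had 26 sites in 15 genes with a median of −2.46 points and 0 calls (none with q below 0.05), and 9 tiles in 4 genes, 8 of them with q below 0.05 (5 negative, 3 positive). Zinc finger genes had 10 sites in 7 genes, 1 with q below 0.05 and none called, and 20 tiles in 5 genes with a median of −2.60 points. Of those tiles 14 had q below 0.05, all negative, and 12 of the 14 were those of zinc finger protein 331. The tripartite motif genes had 7 sites in 3 genes, 2 called as negative, and 1 tile at −5.31 points. Antigen receptor, immunoglobulin and major histocompatibility genes had 4 sites in 2 genes, 1 called as negative, with a median of −5.31 points, and no tile.

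Genes with ubiquitin in their name had 5 sites in 4 genes, none called, and 19 tiles in 3 genes, of which 18 had q below 0.05 and were negative, all in the USP17-like genes. Solute carriers had 3 sites and 3 tiles, with 1 tile passing as positive. Ribosomal protein genes had 1 site and 5 tiles, 3 passing as negative and 1 as positive. Cadherins had 1 tile, which passed as negative at −0.47 points, and no site. Keratins had 1 site and 1 tile, at −0.94 and −0.41 points, and genes with homeobox in their name 1 site and 2 tiles, none of which passed. Genes named as potassium, sodium or calcium channels had 2 sites, at 0 and 1.09 points, and pregnancy-associated glycoproteins 1 site at 2.03 points, with no tile for either. No gene with histone or collagen in its name had a locus.

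Where a tile held listed sites, signs were set side by side. Of the 464 tiles, 55 held at least 1 listed site, and the tile and the mean of its sites had the same sign in 30 (54.5%). Among the 35 of these with q below 0.05 in the authors' deposited table, 24 had the same sign. Tiles starting in 1 of the 1720 listed CpG islands numbered 121, with a median of 0.13 points and 86 (71.1%) with q below 0.05. The 343 tiles outside them had a median of −0.18 points and 196 (57.1%) with q below 0.05. Only 7 sites lay in listed islands, none with q below 0.05.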

How the data were processed

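EM-seq libraries of 12 sperm DNA samples (6 of low and 6 of high daughter fertility) were processed by the authors, and build ARS-UCD1.2, methylKit, Bismark and Trimmomatic are listed in the submitters' processing notes, without versions or settings. The authors deposited a p-value and a q-value for each locus, and the difference, read here as a signed score in percentage points. How the q-values were adjusted, and the depth per sample, are not given in the sources used here, so precision cannot be stated. The q-values did not follow the order of the authors' p-values across chromosomes. For a chromosome 18 site the authors' test gave p = 0.000835 and q = 0.0253, and for a chromosome 14 site p = 0.000852 and q = 0.0130. Counts at q below 0.05 that pool chromosomes therefore do not rest on 1 p-value cutoff. Chromosomes 2, 3, 4, 12, 23 and 27 of the site table and 12, 23 and 27 of the tile table were not analysed here.

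Loci were selected, counted and summarised with Python 3.11.15, pandas 2.3.3 and numpy 2.4.6, checked on simulated data, and drawn with matplotlib 3.10.9. A call needed q below 0.05 and at least 10 points. The groups were not tested anew. Named genes were, per table and type, the 4 most negative and the 4 most positive calls, or, where a type had none, the largest difference with q below 0.05. Genes with the most called sites, genes with a called site and a tile with q below 0.05, the 3 features with the most loci and called members of 14 name-based families were added. Gene names came from the deposited annotation, and symbols were looked up in a RefSeq table of assembly ARS-UCD2.0, where 52 of 53 site genes and 41 of 42 tile genes with an NCBI number matched. The members and lists were chosen with earlier results of these data known. Alternatives changed the thresholds, the adjustment, the counting of strands, clusters and overlapping tiles, and the overlap with the feature.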

Additional observations from a re-analysis of the deposited data

How the results depend on the processing

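The 11 called sites became 5 at q below 0.01 and 3 at a minimum of 20 points. They were 10 to 14 under the other alternatives tried: a minimum of 5 points, Benjamini-Hochberg adjustment, strands of a CpG counted once, calls joined over 1 kb, chromosomes of both tables, and loci naming a gene. Between 66.7% and 80.0% of calls were negative under 3 alternatives, against 81.8%, and leaving out the stretch of chromosome 29 with the most calls left 6 negative of 8. The 282 tiles with q below 0.05 became 161 when overlapping tiles of 1 sign were merged, since neighbours share CpGs. Such merging turned the 464 tiles into 249 regions. The 282 became 79 when the whole tile had to lie in the feature, which leaves 116 tiles. The share passing was then 68.1%, against 60.8% of all 464 tiles and 71.0% of autosomal tiles. The median absolute difference of the 116 tiles was 0.77 points, against 0.52 points for the 464. At q below 0.01 the 282 tiles were 191 and with Benjamini-Hochberg adjustment 224. The 1 called tile became 21 at a minimum of 5 points. Medians were −0.57 points for sites (median of gene medians) and −0.07 for tiles (merged regions). No paired analysis was possible because only the authors' comparison of the groups was analysed, with no values per sample, and for the same reason no sample was left out in turn. Depth is unknown and limits every value to what the authors' test states.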

Other observations

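The genes given here were picked singly after their values were seen, and no group of genes was tested. The tile counts at q below 0.05 in this section stand beside 71.0% of all listed autosomal tiles at that threshold (54.2% negative, 16.8% positive). HSPA2, a chaperone of spermatogenesis, had 5 coding tiles from 0.41 to 1.02 points, 3 of them with q below 0.05 in the authors' deposited table. RPL10L, a retrocopy that stands in for its X-linked parent gene during male meiosis, had 3 coding tiles from −0.66 to −0.48 points, all with q below 0.05. In its 3′ UTR, TET2, an enzyme that oxidises methylated cytosine, had a tile at 1.65 points (q = 0.0129). SPATA6L, named for its likeness to a spermatogenesis gene, had a 5′ UTR tile at 2.11 points (q = 2.22e-13), and asparagine synthetase had the most negative 5′ UTR tile, at −3.62 points (q = 0.000142), per the authors' deposited table.

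Other small differences were ID1, an inhibitor of DNA binding, with 5 tiles from −0.46 to −0.39 points, each with q below 0.05, and NR5A2, a nuclear receptor, with a 5′ UTR tile at 1.06 points. Olfactory receptor 7A17 had a tile at −4.40 points while its 6 listed sites ranged from −10.4 to 7.24 points in the authors' deposited table.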
